A study of Drosophila melanogaster with 2 samples.

Results

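Candidate binding regions of the Fos protein kay in the fly genome were examined for the DNA site that the AP-1 transcription factor recognises. The site is TGAGTCA, or TGACTCA read on the other strand, and it reads the same on both strands except at its centre, a G or a C. A region was taken when a whole site lay within 50 bp of its summit, the position of highest signal, and 750 of the 30000 candidate regions (2.5%) met this rule. Of these 750 AP-1 regions, 214 overlapped the shorter list that the authors kept as reproducible, and 536 did not. Each of the 750 had a different nearest site, so no site stood in both sets.

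ChIP-seq, in which DNA crosslinked to a protein is precipitated with an antibody and sequenced, had been run on *Drosophila melanogaster* embryos, taken whole at 0 to 24 hours with both sexes pooled. The embryos were of a transgenic kay-GFP line that stably expresses kay with GFP at its C-terminus. The precipitation used an antibody against GFP. The labels give 1 group with 2 biological replicates, numbered 2 and 4, and name no mutant or treated embryos, so no condition was compared with another. The deposited dm6 lists hold 30000 candidates for each replicate and for both pooled, which their names call peaks and background, and 3860 regions kept by the irreproducible discovery rate (IDR) procedure, here the IDR list. The 3860 are the strongest regions of the pooled list by signal, the value the authors' peak caller gave each region. Signal is therefore described here and not tested against the IDR list. The lists carry no read counts, so depth is unknown. Intervals for shares are exact (Clopper-Pearson) 95% binomial intervals that cover counting error only. Regions of a set share the same libraries, so each p value compares regions and not embryos. In whole embryos of mixed stages, strong binding in few cells and weak binding in many cannot be told apart.

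AP-1 is a dimer of bZIP proteins, each of which lays a helix into the major groove over one end of the site, TGA on one strand and its mirror image on the other. In flies the Fos partner is kay and the Jun partner is Jra. The kinase JNK activates AP-1, and during dorsal closure the pathway drives the epidermal sheets together over the amnioserosa. The phosphatase puc is a target of the pathway and switches JNK off again.

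The sites of kay and puc are shown first, because these are the genes with the most AP-1 regions on the IDR list. Each line gives 27 bases of the Release 6 genome, the build of the dm6 lists, 5′ to 3′ on the plus strand, with the site in capitals. The place named in each line is the annotation at the summit, whatever the distance to a start of transcription. The bases to compare are those next to the capitals.
kay, intron, rank 31 of the pooled list, site at 3R 29771750 to 29771756: aaaaccccgaTGAGTCAtcgccgtcat
kay, intron, rank 165: aaaacggcgaTGAGTCAtccgcactgc
kay, between genes, rank 2296: tccacggggaTGAGTCAtgtagacgtc
kay, between genes, rank 2651: gcataaatcaTGAGTCAtttgcatatc
kay, between genes, rank 6617: acgatacggaTGAGTCAccaccaatgg
puc, coding exon, rank 47, site at 3R 8105991 to 8105997: ggcgacagcgTGAGTCAtatacaaagt
puc, intron, rank 72: gcgttgatgaTGACTCAtatcagcaaa
puc, intron, rank 177: ggctcgatgaTGACTCAtcgccattac
puc, intron, rank 231: actgagtgcaTGAGTCAtgatttcgct
All 9 sites had a purine just before TGA and a pyrimidine just after TCA, and 7 of the 9 had A before and T after. Over all AP-1 regions, 107 of 214 sites on the IDR list (50%) and 232 of 536 others (43.3%) had the purine and the pyrimidine. A before and T after stood at 36 of 214 sites on the IDR list (16.8%) and 67 of 536 others (12.5%). These 2 genes were singled out after their values were seen.

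The other leading sites lay next to genes of varied function. They belong to the strongest AP-1 regions on the IDR list, in falling order of signal, and to the pro-apoptotic gene rpr.
CG11050: ccagccctgaTGACTCAagcaagcagc
Rac2: ttagtcacagTGAGTCAttcgctcggt
Tbca: gtttgggctcTGACTCActgggcgctc
Sirt1: cataccgtgaTGAGTCAtgctggcggc
viaf: ctacacgaagTGACTCAtgaccaggga
Ets21C: ctagtccgtaTGAGTCAcccgtccatt
Pp2C1: gagcgatggtTGAGTCAtcgccacaca
chic: ttccaagccgTGAGTCAcccgttcact
rpr: attctcgggaTGAGTCAtaccgcgaac
Of the strongest 12 AP-1 regions on the IDR list, 9 had the purine and the pyrimidine on both sides. The same held for 107 of all 214 on the IDR list (50%) and 232 of 536 others (43.3%). Pp2C1 and Tbca lacked the purine, and CG11050 lacked the pyrimidine.

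Of the strongest 4 AP-1 regions that did not overlap the IDR list, 3 had the following sites.
Pex19: cactaagatgTGAGTCAgtgtagccac
AOX3: gaaatattgcTGAGTCAcataattact
CG31650: taactagcgcTGACTCAccgatgatgg
In each of these a base on 1 side only was of the favourable kind, while the strongest region off the list, at pain, had both sides favourable. The 50 bp limit of the rule cut between the next pair of sites, both from regions on the IDR list, and is shown for that reason.
sev, farthest base 50 bp from the summit: acatgactcgTGACTCAtacaactgac
dl, farthest base 51 bp from the summit: ctttcacatgTGACTCAtctccacgag
The sev region, just inside the rule, had a signal of 228 and rank 754 in the pooled list. The dl region, just outside, had a signal of 508 and rank 132.

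AP-1 regions overlapped the IDR list more often than other candidates did. The overlap held for 214 of 750 AP-1 regions, a share of 28.5% (25.3 to 31.9), against 4932 of 29250 candidates without a site, a share of 16.9% (16.4 to 17.3). Over all candidates 17.2% were on the IDR list. The odds ratio was 1.97 (95% Woolf interval 1.68 to 2.31, two-sided p = 4.89e-15 by Fisher's exact test). Of the 214, 184 were IDR regions themselves, and the other 30 were weaker candidates that overlapped one, with a median rank of 9705. Near promoters, 91 of 193 AP-1 regions (47.2%) were on the IDR list, against 2704 of 9003 candidates without a site (30.03%), an odds ratio of 2.08 (1.56 to 2.77, exact p = 1.06e-06). Away from promoters the shares were 123 of 557 AP-1 regions (22.1%) and 2228 of 20247 candidates without a site (11%), an odds ratio of 2.29 (1.87 to 2.81, exact p = 1.57e-13).

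The share of candidates with an AP-1 site was highest at the strong end of the ranking. Among the strongest 3000 candidates 154 had a site, a share of 5.13% (4.37 to 5.98). Among the weakest 3000 there were 48, a share of 1.60% (1.18 to 2.12). A sequence with the same ends but A or T at its centre, TGAATCA or TGATTCA, served for comparison, and 104 of the strongest 3000 candidates (3.47%) and 65 of the weakest 3000 (2.17%) had it. From rank 15001 down, the AP-1 site was less common than this sequence in each bin, with overlapping intervals. AP-1 regions made up 5 of the strongest 15 candidates, 8 of the strongest 50, 14 of the strongest 100 and 35 of the strongest 500. The cut at 15 ends on an AP-1 region, and the next one had rank 31, so the share at that cut is a high one.

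**Figure D1:**
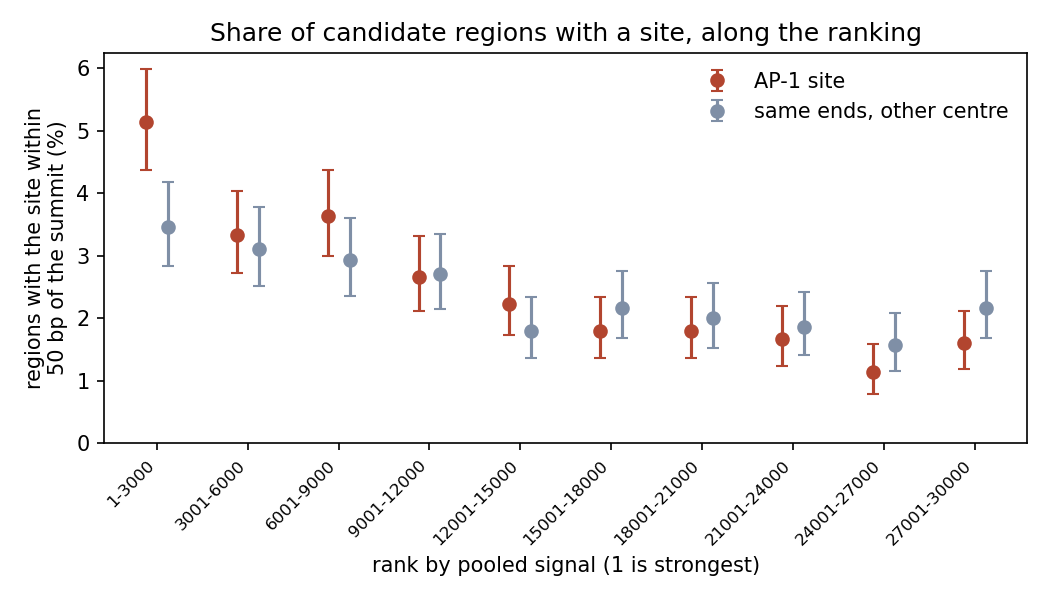
Share of pooled candidates with a site within 50 bp of the summit (y axis, percent) in bins of 3000 along the ranking by pooled signal (x axis, strongest at the left). Red points stand for the AP-1 site and grey points for the same ends with A or T at the centre, with exact 95% intervals. The red share is 5.13% in the strongest bin and 1.60% in the weakest.

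Across the genome most AP-1 sites lay under no candidate. The 6 chromosome arms hold 11142 sites, of which 217 (1.95%) lay within 50 bp of the summit of a region on the IDR list and 757 (6.79%) within 50 bp of any candidate summit. For the sequence with A or T at its centre the counts were 152 (0.904%) and 729 (4.34%) of 16808. Location divided the sites widely. Of 1346 AP-1 sites within 500 bp of a transcription start site (TSS), 95 (7.06%) lay at a summit on the IDR list and 200 (14.9%) at any candidate summit. In introns the shares were 1.73% and 7.57% of 5390 sites, and between genes 0.713% and 3.43% of 3087. In coding exons they were lowest, at 0.107% and 1.93% of 931 sites. Sites are placed here by their own position, and regions elsewhere by their summit.

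The base on either side of the site set sites under regions apart from the other sites of the genome. AP-1 proteins are known to prefer a purine before TGA and, since the site mirrors itself, a pyrimidine after TCA. Both sides had the preferred kind at 108 of 217 sites near summits on the IDR list (49.8%), against 1848 of 8912 sites under no candidate (20.7%). The odds ratio was 3.79 (2.89 to 4.97, exact p = 9.96e-21). Near summits of the other candidates it was 233 of 540 sites (43.1%), an odds ratio of 2.90 (2.43 to 3.47, exact p = 1.11e-29) over the same 8912. The sequence with A or T at its centre also had both preferred sides more often near summits. They stood at 73 of its 152 sites near summits on the IDR list and 293 of 729 near any candidate summit, against 3918 of all 16808. The difference was therefore not particular to the AP-1 site. The base just outside TGA, counted at both ends of each site, was A at 38.3%, G at 33.9%, C at 14.3% and T at 13.6% of positions in AP-1 regions on the IDR list. In the other AP-1 regions it was A at 35.3%, G at 30.97%, C at 18.2% and T at 15.6%. At sites under no candidate it was A at 26.8%, G at 21.04%, C at 22.7% and T at 29.4%.

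Seen from the genome, the share of sites at a region went up with each favourable side. At 0, 1 and 2 favourable sides, 0.502%, 1.63% and 4.05% of sites lay at a summit on the IDR list, and 2.78%, 5.84% and 12.8% at any candidate summit. Within 500 bp of a TSS the shares at an IDR summit were 2.30%, 6.94% and 11.5%, and farther away 0.263%, 0.924% and 2.93%. The sequence with A or T at its centre had the same order, with 0.493%, 0.686% and 1.86% at an IDR summit. A site with A before and T after lay at any candidate summit in 103 of 779 cases (13.2%). A site with T before TGAGTCA and A after it did so in 21 of 967 cases (2.17%). Sites at regions and sites elsewhere differ also in location, and the part of base composition in these shares was not tested.

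**Figure D2:**
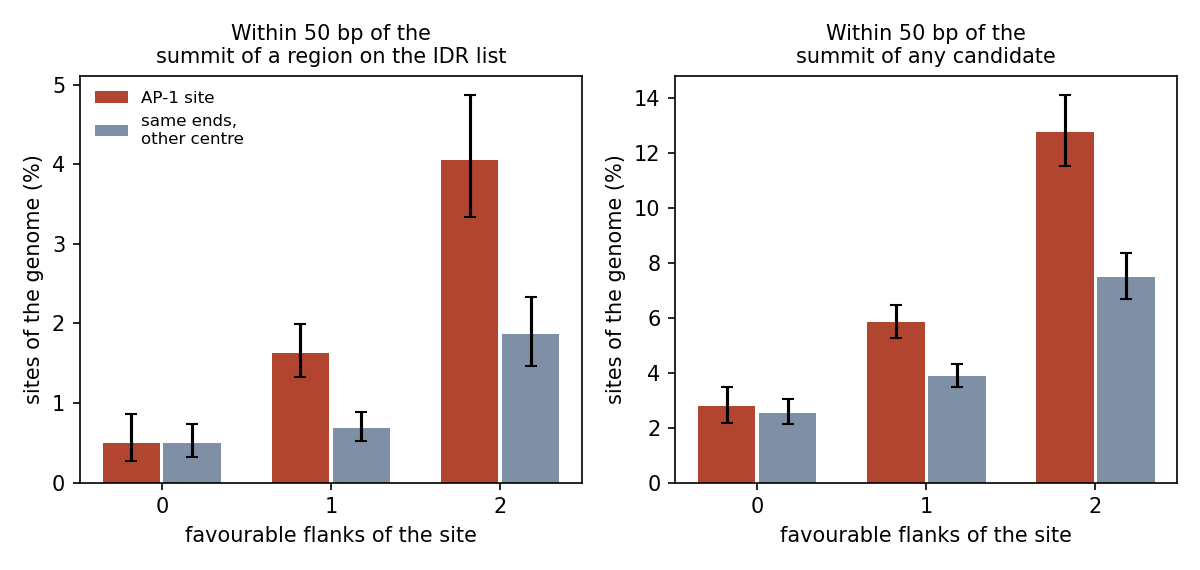
Share of all sites on the 6 arms (y axes, percent, separate scales) that lie within 50 bp of a summit on the IDR list (left) or of any candidate summit (right), by the number of favourable sides of the site (x axes). Red bars are AP-1 sites, grey bars the same ends with A or T at the centre, and lines are exact 95% intervals. For AP-1 sites the left panel has 0.502%, 1.63% and 4.05%.

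Between the sets of AP-1 regions the same measure missed the threshold as reported, but not in every setting. Both sides were favourable at 107 of 214 sites on the IDR list, 50% (43.1 to 56.9), and at 232 of 536 other sites, 43.3% (39.0 to 47.6). The odds ratio of 1.31 had an interval from 0.954 to 1.80 (exact p = 0.104, threshold 0.05). With replicate 4 alone the odds ratio was 1.64 (exact p = 0.0023), and with replicate 2 alone 1.29 (exact p = 0.15). Away from promoters it was 1.53 (exact p = 0.041), and when only the 184 regions that are IDR regions themselves were counted it was 1.54 (exact p = 0.013). No favourable side was found at 12 of 214 sites on the IDR list (5.61%), against 58 of 536 other sites (10.8%). Read the other way, 31.6% (26.6 to 36.8) of AP-1 regions with both sides favourable were on the IDR list. The share was 27.9% (23.2 to 32.9) with 1 favourable side and 17.1% (9.18 to 28.0) with 0, beside 17.2% of all candidates. The class with 0 held only 70 regions, and its interval overlaps both others.

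Bases up to 3 positions outside the site were compared one by one. None of 12 tests passed after Benjamini-Hochberg adjustment, and 1 had an unadjusted p under 0.05. That was G at the third base out, at 103 of 214 sites on the IDR list (48.1%) and 209 of 536 other sites (39.0%), an odds ratio of 1.45 (1.05 to 2.00, exact p = 0.0266, adjusted p = 0.320).

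AP-1 regions on the IDR list lay at promoters more often than the other AP-1 regions. The summit was within 500 bp of a TSS in 91 of 214 regions on the IDR list, 42.5% (35.8 to 49.4), and in 102 of 536 others, 19.03% (15.8 to 22.6). The odds ratio was 3.15 (2.23 to 4.45, exact p = 1.07e-10). With replicate 2 alone it was 4.76 and with replicate 4 alone 2.86. Candidates without a site had the same order, with 54.8% at promoters on the IDR list and 25.9% off it. The median distance to the nearest TSS was 757 bp for AP-1 regions on the IDR list and 1639.5 bp for the others. At promoters the summit was upstream of the TSS in 53 of 91 AP-1 regions on the IDR list and in 56 of 102 others. Over all AP-1 regions 47.2% of those at promoters were on the IDR list, 22.9% of those in introns, 20% of those between genes and 2 of 25 in coding exons.

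Away from promoters no location class passed the test between the sets. Introns held 92 of 123 AP-1 regions on the IDR list (74.8%) and 309 of 434 others (71.2%). Intergenic DNA held 17.1% of those on the IDR list and 19.4% of the others. Coding exons held 2 of 123 (1.63%) and 23 of 434 (5.30%), with the lowest exact p of the 5 classes, 0.0889 (adjusted p = 0.444). No class had an unadjusted p under 0.05.

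**Figure D3:**
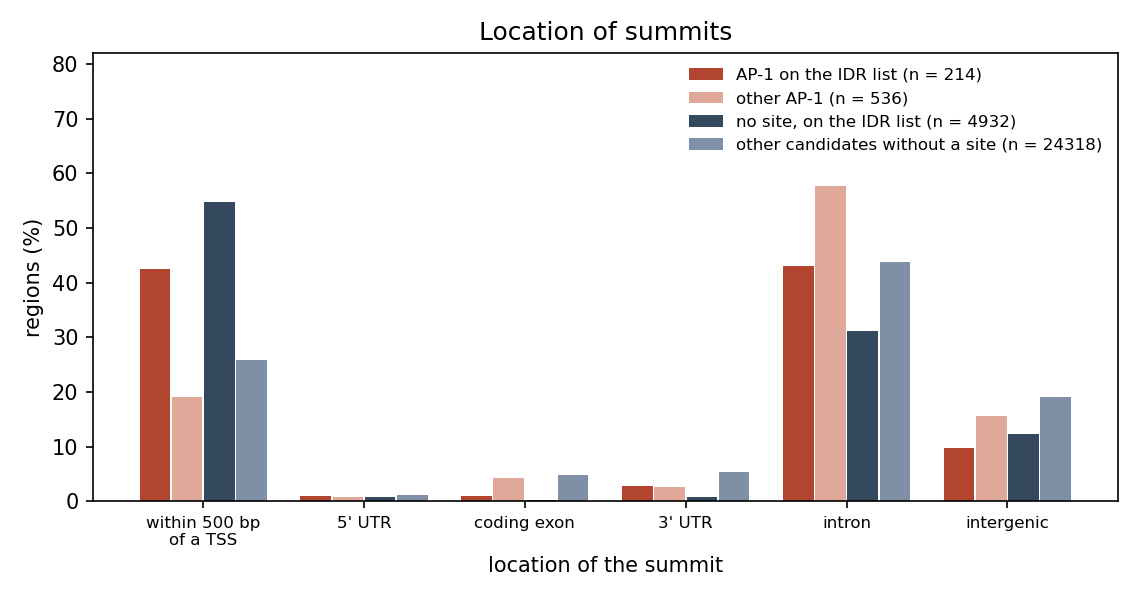
Location of the summit (x axis) as a share of regions (y axis, percent) for AP-1 regions on the IDR list, other AP-1 regions, candidates without a site on the IDR list and other candidates without a site. Within 500 bp of a TSS the bars stand at 42.5%, 19.03%, 54.8% and 25.9%.

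No difference in the distance from summit to site was detected between the sets. The median distance from the summit to the centre of the site was 21 bp in AP-1 regions on the IDR list and 22 bp in the others. The site centre was within 10 bp of the summit in 57 of 214 regions on the IDR list (26.6%) and 121 of 536 others (22.6%). The odds ratio of 1.25 had an interval from 0.865 to 1.79 (exact p = 0.254). With replicate 2 alone it was 0.926, on the other side of 1. The share of AP-1 regions on the IDR list was 32.0% with the site within 10 bp and 27.6% with it 31 to 47 bp away.

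**Figure D4:**
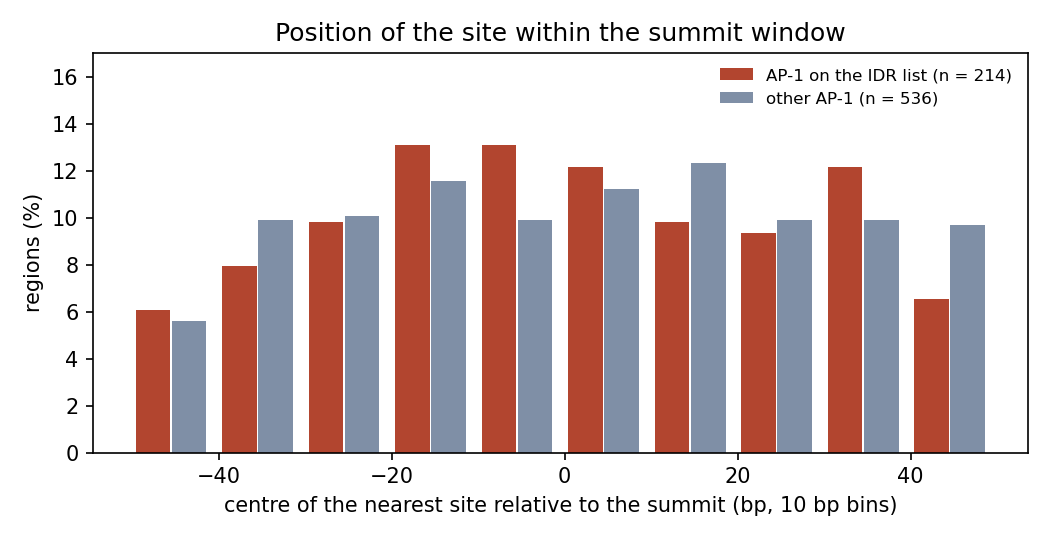
Position of the nearest AP-1 site's centre relative to the summit (x axis, bp, bins of 10 bp) as a share of regions (y axis, percent). Red bars are AP-1 regions on the IDR list and grey bars the others. The bins from -20 to 9 bp hold 13.1%, 13.1% and 12.1% of the red set and 11.6%, 9.89% and 11.2% of the grey set.

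More than 1 site was rare in both sets. A window of 150 bp to each side of the summit held at least 2 sites in 9 of 214 AP-1 regions on the IDR list (4.21%) and 35 of 536 others (6.53%), an odds ratio of 0.628 (0.297 to 1.33, exact p = 0.301). With replicate 2 alone the odds ratio was 1.15. Over these 44 regions the median of the smallest spacing between sites was 83 bp, and 2 regions had sites less than 20 bp apart. One of these lay in an intron of N, the Notch receptor, and the other in an intron of Wnt6, a Wnt ligand, both off the IDR list. The region with 3 sites on the IDR list lay in an intron of Cip4, an F-BAR protein that shapes membranes, at 3L 4353932 to 4354387. Its sites were 67 and 22 bp apart, and its nearest site was this one.
Cip4: aggaagtgggTGACTCAaaagaaaaag
Its own signal in the pooled list was only 30.98 (rank 20310), while the overlapping candidates had 72.3 in replicate 2 (rank 2619) and 53.0 in replicate 4 (rank 2402). The only other region with 3 sites, in an intron of pigs, was not on the IDR list and had a signal of 45.04.

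Motifs of other factors were counted within 50 bp of the summit on both strands. They were the DRE promoter element TATCGATA, the repeat GAGAGAG of the GAGA factor, the Zelda motif CAGGTAG, the Grainyhead motif AACCGGTT, the GATA factor motif AGATAA, the ETS motif CCGGAA, the E-box CAGCTG, the TEAD motif GGAATG, the homeodomain motif TAATTA and the cAMP response element TGACGTCA. None contains the AP-1 site. They occurred in 1.08%, 1.81%, 0.453%, 0.163%, 7.11%, 2.30%, 4.39%, 4.37%, 7.45% and 0.287% of all 30000 windows, in that order. None of the 10 passed the adjusted test between the AP-1 sets, and 1 had an unadjusted p under 0.05. This was the GAGA repeat, in 9 AP-1 regions on the IDR list (4.21%) and 8 others (1.49%), an odds ratio of 2.90 (1.10 to 7.61, exact p = 0.0310, adjusted p = 0.310). The order was the same in candidates without a site, with the repeat in 2.55% of those on the list and 1.64% of those off it. The median GC content of the bases within 50 bp of the summit was 46.5% in AP-1 regions on the IDR list and 43.6% in the others, beside 36.6% and 38.6% in candidates without a site on and off the list.

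Signal in the pooled list, which defines the IDR list, had a median of 137 (range 24.8 to 2531) in AP-1 regions on it and 41.4 (23.3 to 93.5) in the others. Each replicate's own list tells how far the regions recurred. A region was counted, and given its rank, by the strongest candidate of the replicate that overlapped it. The 30 regions that are on the IDR list only by overlap may thus carry the rank of a stronger neighbour. In replicate 2, 211 of 750 AP-1 regions (28.1%) overlapped the strongest 3860, against 16.9% of all candidates. In replicate 4 it was 227 (30.3%), against 17.3% of all candidates. Of the AP-1 regions on the IDR list, 180 of 214 (84.1%) were in the strongest 3860 of both replicates, and of the others 1 of 536 (0.187%). The IDR list was derived from these replicates, so these shares are a description. Replicate 2 had no candidate at 1 of the AP-1 regions on the IDR list and at 89 of the others. Replicate 4 had a candidate at each of the 214 on the list and none at 77 of the others. Over the 213 AP-1 regions on the IDR list with a candidate in both replicates, the Spearman correlation of the ranks was 0.758. All of these points come from the same 2 libraries, and each replicate was called against 1 control file.

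**Figure D5:**
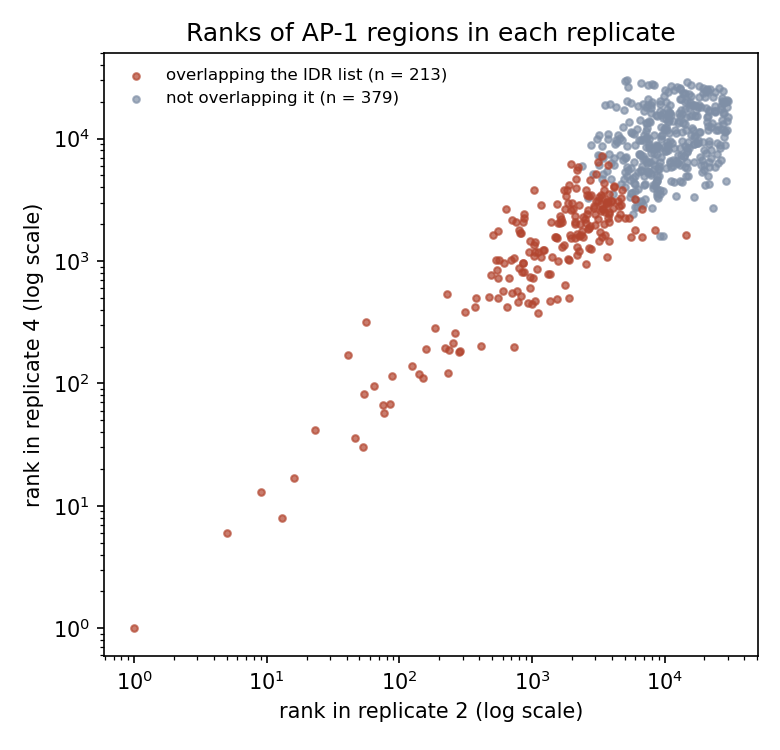
Rank of each AP-1 region in replicate 2 (x axis, log scale, 1 is strongest) against its rank in replicate 4 (y axis, log scale). Ranks are those of the strongest overlapping candidate. Red points are the 213 regions on the IDR list with a candidate in both replicates and grey points the 379 others. The region next to CG11050 ranked 1 in both.

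The strongest AP-1 region stood at the same place in every list. It lay between genes at 2L 6610626 to 6611179, 75 bp upstream of a TSS of CG11050. Its signal was 2531 in the pooled list, 1304 in replicate 2 and 1234 in replicate 4, rank 1 in each. The next one lay 213 bp upstream of Rac2, a Rac GTPase that remodels actin, and within an intron of CG42458 at 3L 7435126 to 7435645. Rac2 had a signal of 1498 in the pooled list (rank 5), 813 in replicate 2 (rank 5) and 685 in replicate 4 (rank 6). Its summit was 3 bp from the centre of the site.

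Khc, Tbca and chic were also among the genes of the strongest 12 AP-1 regions. In an intron of Khc, the heavy chain of the motor kinesin, the signal was 1291 pooled (rank 10), 731 in replicate 2 and 551 in replicate 4. At Tbca, a cofactor that folds tubulin, it was 1243 pooled (rank 11), 649 in replicate 2 and 589.7 in replicate 4, with the summit 39 bp upstream of the TSS and 1 bp from the site centre. At chic, the fly profilin, which feeds actin filament growth, it was 649 pooled (rank 73), 389 in replicate 2 and 256 in replicate 4. The chic region (2L 5980001 to 5980531) held 2 sites over its full width and 1 within 150 bp of the summit.

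Other regions of the strongest 12 lay at Sirt1, viaf, Ets21C and Pp2C1. Sirt1, a protein deacetylase, had a signal of 1057 pooled (rank 15), 594 in replicate 2 and 483 in replicate 4, from a summit in an intron of the neighbouring DnaJ-H. The promoter of viaf had 815 pooled (rank 38), 411 in replicate 2 and 401 in replicate 4. Ets21C, an ETS transcription factor known as a JNK target, had 684 pooled (rank 69), 409 in replicate 2 and 278 in replicate 4. Its summit lay in the 5' UTR, 166 bp from the TSS, and its site at 2L 552738 to 552744. Pp2C1, a protein phosphatase, had 682 pooled (rank 70), 361 in replicate 2 and 319 in replicate 4. All 12 were among the strongest 95 candidates of each replicate, 8 of the 12 lay within 500 bp of a TSS, and each had 1 site within 150 bp. The median signal of AP-1 regions on the IDR list was 90.1 in replicate 2 and 66.5 in replicate 4, but the scaling between the lists is not stated, so only ranks can be compared.

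On the IDR list, kay and puc had more AP-1 regions than any other gene. A region was given to the gene of its nearest TSS and to a gene it lay within. By this rule 240 of 13945 protein-coding genes had an AP-1 region on the IDR list, and 234 of them had 1. The exceptions were kay with 5, puc with 4, and Rab6 (a Golgi GTPase), Syx1A (a syntaxin of vesicle fusion), alphaTub84B (an alpha-tubulin) and eIF4EHP (a translation repressor) with 2 each. Syx1A and eIF4EHP shared their pair of regions, in an intron of eIF4EHP, and these regions overlap the same candidate in each replicate (ranks 863 in replicate 2 and 971 in replicate 4). The weaker region of this pair (pooled rank 8981) and the kay region at pooled rank 6617 were on the list only through overlap with a stronger region.

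The 5 regions of kay were spread over its introns and the DNA beyond its start. The strongest, in an intron at 3R 29771569 to 29772003, had a signal of 853 pooled (rank 31), 529 in replicate 2 (rank 23) and 348 in replicate 4 (rank 42). The intron region at rank 165 of the pooled list ranked 160 in replicate 2 and 191 in replicate 4, and its nearest TSS was that of fig. The other 3 lay between genes, 2652, 4152 and 8273 bp from the nearest kay TSS, at ranks 2651, 2296 and 6617. The last of these was on the list only through overlap with a stronger region. All 5 sites are in the sequences shown above, each with a favourable base on both sides.

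By the annotation at their summits, the 4 regions of puc lay in a coding exon and in introns. The coding exon summit was 482 bp from the nearest puc TSS, so the shares by location counted it as promoter. The strongest, at 3R 8105747 to 8106391, had a signal of 765 pooled (rank 47), 437 in replicate 2 (rank 46) and 371 in replicate 4 (rank 36). The intron region at rank 72 had 663 pooled, 369.6 in replicate 2 (rank 75) and 294 in replicate 4 (rank 67), and its nearest TSS was that of CG7878. The remaining pair, at ranks 177 and 231, lay 7020 and 7779 bp from the puc TSS. Of all 13945 protein-coding genes, 240 (1.72%) had an AP-1 region on the IDR list, and 3088 had any region on it. The gene lists used from here on were chosen with earlier results of these data known, so their counts are a description. In the JNK pathway list of 18 genes, 3 had an AP-1 region on the IDR list, and 10 had any region on it. The gene besides kay and puc was wnd, a kinase upstream of JNK. Its AP-1 region, in a 3' UTR of the neighbouring Rnf146, had pooled rank 19824 and was on the list through overlap with a stronger region (rank 1888 in replicate 2 and rank 4209 in replicate 4). Tak1, a kinase upstream of JNK, and the adaptor Traf4 had AP-1 regions off the list only, with signals of 91.1 and 25.4. AP-1 regions off the list only were found at 540 of all 13945 protein-coding genes. The Jun gene Jra had none on or off the list.

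Among 16 known AP-1 and JNK targets, 3 had an AP-1 region on the IDR list, and 14 had any region on it. These were Ets21C and chic, given above, and rpr, which triggers apoptosis by blocking an inhibitor of caspases. The rpr region lay between genes, 4070 bp upstream of the gene, with a signal of 137 pooled (rank 2038), 95.9 in replicate 2 and 47.2 in replicate 4. Mmp2, cher, jar and rdx had AP-1 regions off the list only, as did 540 of all 13945 protein-coding genes. Over all 13945 protein-coding genes, 3088 had a region on the IDR list, and 240 of these (7.77%) had one with an AP-1 site.

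Of 20 genes of actin, myosin and closure, 4 had an AP-1 region on the IDR list: Rac2, Rok (a kinase that activates myosin), pnut (a septin) and zip (the heavy chain of non-muscle myosin). Any region on the list was found for 17 of the 20. Over all protein-coding genes 1.72% had an AP-1 region on the IDR list, and 3088 of 13945 had any region on it. The pnut region had a signal of 409 pooled (rank 220), 207 in replicate 2 and 192 in replicate 4, and it lay between genes, 3860 bp from the TSS. The zip region, in an intron, had 131 pooled (rank 2214), 75.8 in replicate 2 and 54.7 in replicate 4. The Rok region, in an intron, had 72.7 pooled (rank 5613) and was on the list through overlap with a stronger region. The strongest candidates overlapping it had 71.6 in replicate 2 and 50.6 in replicate 4, and these may belong to that stronger region. Of 19 adhesion and matrix genes, 10 had any region on the list and 2 had one with an AP-1 site: mys, the beta subunit of integrin, with 256 pooled, 165 in replicate 2 and 96.5 in replicate 4, and ed, a cell adhesion protein, with 123 pooled, 73.3 in replicate 2 and 58.0 in replicate 4.

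The counts of the remaining lists ran from 0 to 2 genes. Of 13 amnioserosa regulators 1 had an AP-1 region on the IDR list, aop, an ETS repressor, with 239.8 pooled, 112 in replicate 2 and 133 in replicate 4. Of 16 other bZIP factors it was cnc, the fly relative of the stress regulator Nrf2, with 103 pooled, 51.7 in replicate 2 and 44.4 in replicate 4. Of 16 EGFR and Ras genes it was vn, a ligand of the receptor, with 106 pooled, 52.2 in replicate 2 and 52.5 in replicate 4. Among 10 muscle genes, Tm1, a tropomyosin, and how, an RNA-binding protein, had one. The Tm1 region (72.9 pooled, rank 5593) was on the list through overlap with a stronger region. Any region on the list was found for 6 of the 10 muscle genes, beside 3088 of all 13945 protein-coding genes. None was found for the 13 epidermal wound genes, 14 oxidative stress genes, 14 Hippo genes, 6 JAK/STAT genes, 10 autophagy and growth genes, 9 nervous system genes, 5 tracheal genes and 13 segmentation genes. With lists this short and a share of 1.72% over all genes, a count of 0 does not set a list apart. Each of these 8 lists had AP-1 regions off the IDR list, such as those at Stat92E, the transcription factor of the JAK/STAT pathway (signal 72.2), and at Src42A, a Src kinase (68.8). Genes with AP-1 regions off the list only numbered 540 of all 13945.

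The strongest AP-1 regions off the IDR list fell just below its end. They lay at pain, a TRP channel for painful stimuli (signal 93.5, rank 3865), at Pex19, which inserts peroxisomal membrane proteins (93.4, rank 3870), at AOX3, an aldehyde oxidase (91.8, rank 3978), and at CG31650 (91.6, rank 3999). In replicate 2 they ranked 2403, 6220, 3190 and 3240, and in replicate 4 they ranked 5982, 2771, 6131 and 7190. Each was thus within the strongest 3860 of 1 replicate only. Of all 750 AP-1 regions, 2 had a central 51 bases found elsewhere in the genome, one of them 236 times in all, and both were off the list.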

How the data were processed

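The deposited files used were dm6 peak lists in narrowPeak format, for replicates 2 and 4, for both pooled, and after IDR. Per the descriptions deposited with the samples, candidates were called on alignments of 1 replicate or of both pooled against 1 control file. The IDR list was derived from the candidate lists. The signal that the authors deposited is the peak caller's value, and its scaling is not given in the sources used here, nor are the caller and the aligner. The deposited summit offset was used for positions. Fragments were sonicated to 200 to 800 bp, per the labels. Depth per sample is unknown. Lists in dm3 were not used here.

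Sites were read from the Release 6 genome sequence, whose arm lengths match dm6, on 6 arms. Gene models were 13945 protein-coding genes with 19607 TSSs in Ensembl release 115. Coordinates are 1-based. A region was on the IDR list when it overlapped an IDR region by at least 1 bp. Its signal and rank in a replicate were those of the strongest candidate of that replicate overlapping it. Summits within 500 bp of a TSS were called promoter and the rest by the annotation at the summit, with UTRs and coding exons before introns.

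Two-sided Fisher's exact tests with Woolf intervals compared shares, and families of 5 location classes, 12 flanking bases and 10 motifs were adjusted by Benjamini-Hochberg. With 2 replicates of 1 group no test over samples was possible. The members and the 16 gene lists were chosen with earlier results of these data known, and 211 of 211 listed genes were matched. Named were the strongest 12 AP-1 regions on the IDR list, the strongest 4 off it, those on it with 3 or more sites, up to 3 regions per gene list, and the regions at the edge of the rule; other genes were picked later, with their values known. Alternatives were the site window (25 and 100 bp), reciprocal overlap of 50%, 1 region per site, each replicate alone, promoter distance, promoter or other regions alone and the full width of the region. Added after seeing the data were windows whose central 51 bases occur once, regions that are IDR regions themselves, and the overlap with the IDR list by location. For a replicate alone, its own candidates were used, and its strongest 3860 stood in for the IDR list. The code was tested on simulated data. The tools were pandas 2.3.3, scipy 1.17.1 and numpy 2.4.6 under Python 3.11.15.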

Additional observations from a re-analysis of the deposited data

How the results depend on the processing

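The odds ratio for overlap with the IDR list ran from 1.83 to 2.29 and that for the promoter share from 2.57 to 4.76 over the alternatives run, on the same side of the threshold in each. Both sides favourable, with an odds ratio of 1.31 as reported, passed the threshold with sites within 100 bp (1.36), with a reciprocal overlap of 50% (1.4), with IDR regions themselves (1.54) and away from promoters (1.53). Leaving out a replicate gave 1.29 to 1.64 for favourable sides, 0.623 to 1.15 for several sites and 0.926 to 1.41 for a site within 10 bp; the last 2 results changed direction without replicate 4 and passed the threshold in no alternative. The cause was not tested. Counting 1 region per site changed no value, since no nearest site was shared. Location classes, flanking bases and motifs were rerun only in that way, with 0 calls each. No paired analysis was possible because the labels hold a single group. The lists give no depth, and the candidates off the IDR list may include background.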

Other observations

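Chromosome arm 3R held 72 of 214 AP-1 regions on the IDR list (33.6%) and 120 of 536 others (22.4%), beside 24.7% and 21.5% of candidates without a site on and off the list. Of the AP-1 regions on 3R, 37.5% were on the IDR list, against 20% to 27.9% on the other arms. This difference was noticed in the data and was not tested. The 9 regions of kay and puc all lie on 3R.

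The TEAD motif GGAATG stood within 50 bp of the summit in 7.01% of AP-1 regions on the IDR list and 6.72% of the others, beside 3.71% and 4.43% of candidates without a site on and off the list. The homeodomain motif TAATTA stood in 2.80% and 5.04% of the AP-1 regions, beside 7.81% and 7.47%. Neither difference between AP-1 regions and candidates without a site was tested, and their GC contents differ.

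With the site read as TGAGTCA, sites with 1 favourable side differed among themselves in how often they lay at a candidate summit. A C on both sides gave 9.13% of 471 sites and a T on both sides gave 4.51% of 1020. An A on both sides gave 4.63% of 843 sites and a G on both sides 7.32% of 710. These are values with no test.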
